A study of Sus scrofa with 32 samples.

Results

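Glandular epithelium (GE) and stroma (S) of the endometrium of cyclic pigs were compared gene by gene within the same animal. The comparison held 8 of the 32 samples of the series, a GE and an S library from each of 4 gilts. The labels name them CG128, CG40, CG42 and CG78 for GE and CS128, CS40, CS42 and CS78 for S, and the libraries were paired by the gilt number in their labels. Genes were taken in when they were in the filtered table of GE or in that of S, which gave 13379 of the 30185 genes counted. The remaining genes of the count table were not tested. GE and S had been cut by laser capture microdissection from frozen uterine sections stained with cresyl violet. The rest of the series held luminal epithelium (LE), blood vessel (BV) and the same compartments of pregnant gilts. One pregnant GE sample, PG41, was taken out of the processed data according to its label, and the pregnant gilts therefore gave 3 pairs of GE and S.

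All gilts of the series were prepubertal animals synchronized with equine chorionic gonadotropin (eCG) followed by human chorionic gonadotropin (hCG), so the ovulation shared by both groups was a hormonally induced one. The 4 cyclic gilts, called non-pregnant or control in the labels, were inseminated with the supernatant of semen from the boar that served the pregnant gilts, and they were sampled on day 14 after ovulation according to the labels. The captured compartments are pieces of tissue and not sorted cells, so vessels, immune cells and nerve lying in the stroma could be cut with it. One GE and one S library came from each gilt, and gilts are the replicates.

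Uterine glands are tubes of epithelium that grow down into the stroma and release the secretion (histotroph) on which the pig conceptus lives before it attaches. The stroma consists of fibroblasts in a collagenous matrix, and together with vessels it carries hormones and leukocytes to the glands. Growth factors made in the stroma and bound by receptors on the epithelium are a known route by which progesterone and estrogen act on glands, since the receptors of both hormones are present in stroma as well as in epithelium.

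The 8 libraries held between 3095926 and 5388161 counts each after removal of PCR duplicates by the authors, and those of GE lay between 3915623 and 4557268. No pair of libraries of a compartment agreed within sampling noise (chi-square per degree of freedom of at least 10.35 over genes). Ribosomal RNA made up between 5.201% of the counts, in CG78, and 15.3%, in CS42. Levels are given as CPM (counts per 1000000 counts of the library) scaled by the trimmed mean of M values (TMM), and sets of 4 values are listed in the order CG128, CG40, CG42 and CG78 for GE and CS128, CS40, CS42 and CS78 for S. Differences are fitted log2 differences, GE minus S, with their standard error (SE), so a positive value means a higher level in GE. They come from edgeR's quasi-likelihood test with the gilt as a block, and a gene was called at a Benjamini-Hochberg adjusted p under 0.01 over all 13379 genes.

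Both compartments carried the markers of their label. The summed level of 28 epithelial markers was 2895 to 4052 CPM in GE and 42.5 to 334 CPM in S. In S the sum was higher in CS128 and CS78, with 334 and 317 CPM, than in CS40 and CS42, with 70.7 and 42.5 CPM. The sum of 20 fibroblast markers was 43338 to 118619 CPM in S and 3656 to 8908 CPM in GE, so that GE held 5.07% to 10.9% of the level in S of the same gilt. All of the markers in both lists were detected in both compartments. How far epithelium lying in the stromal captures, or stroma in the glandular ones, set the fitted differences was not tested.

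**Figure D1:**
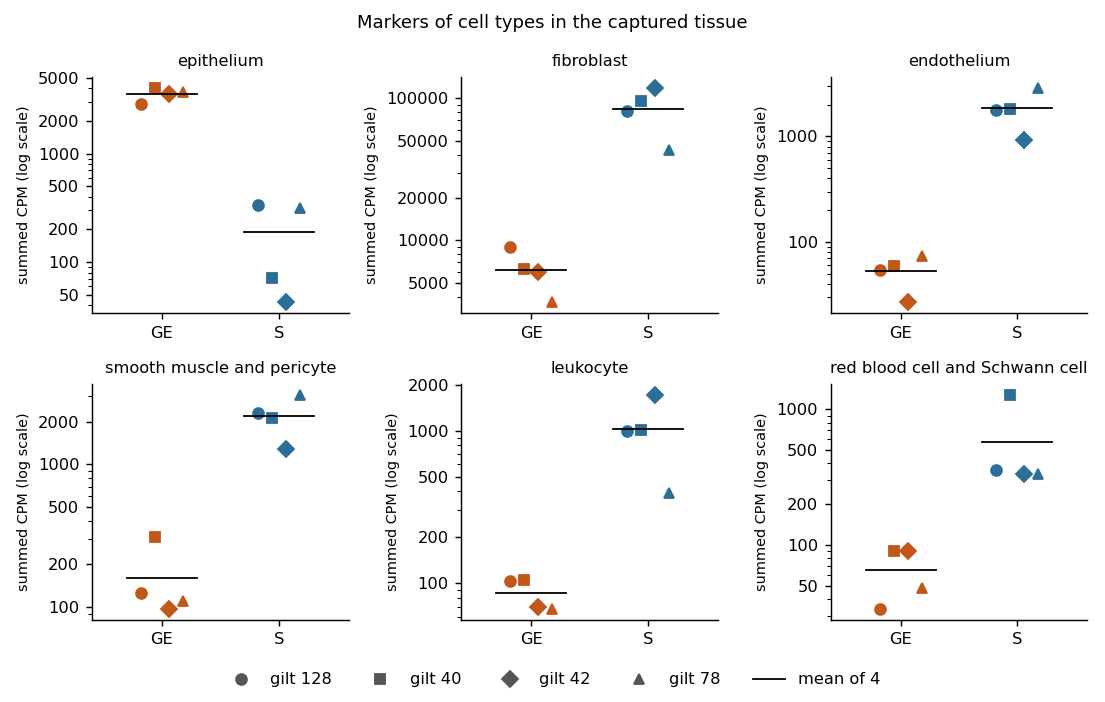
Summed level of 6 marker gene lists (CPM, log axis) in GE and S of the 4 cyclic gilts, with a symbol for each gilt and a bar at the mean. Epithelial markers stood at 2895 to 4052 CPM in GE, and the 5 other lists stood higher in S in every gilt.

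The summed markers of other cell types were low in GE and higher in S. The summed level of 17 endothelial markers was 26.7 to 73.4 CPM in GE and 922 to 2886 CPM in S, that of 15 smooth muscle and pericyte markers 97.1 to 308 CPM and 1294 to 3084 CPM, and that of 24 leukocyte markers 67.9 to 105 CPM and 390.3 to 1717 CPM. Among the leukocyte markers GZMB, MS4A1 and CPA3 had no count in GE and CPA3 none in S. The 11 red blood cell and Schwann cell markers summed to 33.5 to 90.3 CPM in GE and 332 to 1286 CPM in S. In CS40 the haemoglobin gene HBB alone made up 1206 CPM of that sum. Of the 4 members of this list that were tested, 2 had a fitted difference above 0, toward GE. In captures of this kind fewer cells of a type and less RNA per cell cannot be told apart.

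Of the 13379 genes, 5307 (39.7%) differed between GE and S. A higher level in GE was called for 2389 genes (17.9% of those tested) and a higher level in S for 2918 (21.8%). A fitted difference of at least 4-fold was reached by 1278 genes called higher in GE and by 2010 called higher in S. At 64-fold or more the order turned, with 154 genes in GE and 54 in S. The 4 GE values and the 4 S values did not overlap for 7092 genes (53.0% of those tested) and for 5063 of the 5307 called. The median difference over all genes tested was 0.01. The filtered tables were made from cyclic and pregnant libraries together, so a gene can be in 1 table alone through its level in that compartment, which makes a call more likely. The genes called were 795 of 1444 genes found in the GE table alone (55.1%) and 1112 of 1474 in the S table alone (75.4%), against 32.5% of the 10461 genes in both. No count at all was present in S for 58 of the genes tested and in GE for 23.

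**Figure D2:**
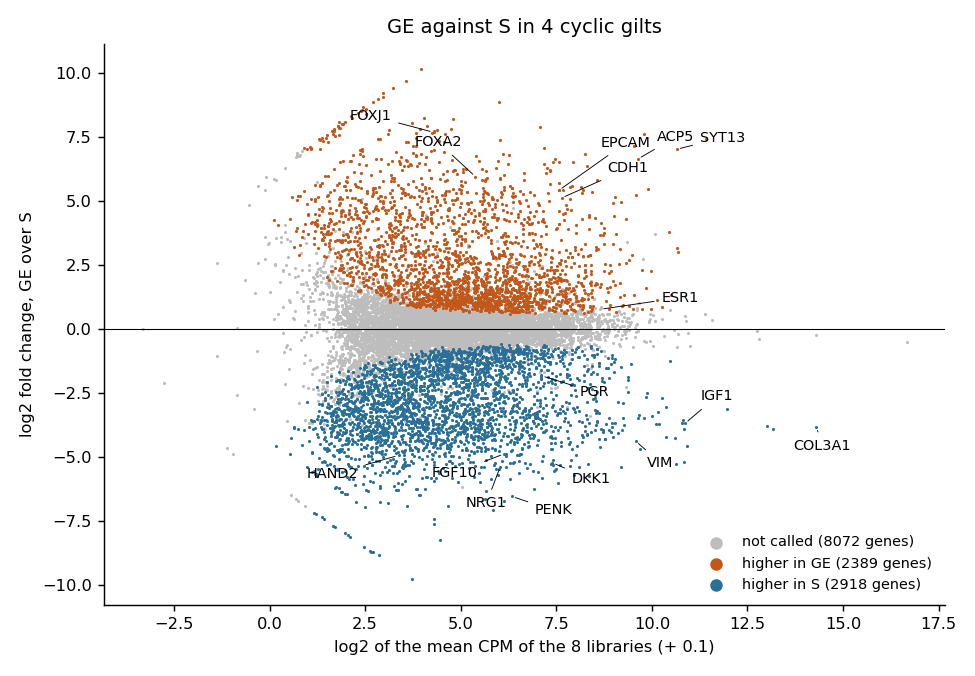
Fitted log2 difference (GE minus S) against mean level (log2 CPM) of 13379 genes in cyclic gilts, with the 5307 called genes coloured by direction. Genes called higher in GE (2389) lie above 0 and those called higher in S (2918) below it, and 154 against 54 of them differed by at least 64-fold.

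Genes of epithelial identity were higher in GE almost without exception. Of 27 tested, 25 were called higher in GE and 1 in S, with a median difference of 4.33 against 0.01 over all genes. Of the 27, 11 were in the GE table alone, and of the 16 in both, 15 were called higher in GE and 1 in S. EPCAM, an epithelial adhesion molecule, was at 337, 400.2, 334 and 401 CPM in GE and 22.5, 2.36, 1.16 and 19.8 CPM in S. The values did not overlap, and those in S were highest in CS128 and CS78. The difference was 5.42 ± 0.74 (adjusted p = 0.00102). CDH1, E-cadherin of the adherens junction, was at 314, 417, 329 and 464 CPM in GE and 23.7, 2.36, 1.16 and 40.7 CPM in S, and here too CS128 and CS78 stood above the other two while all remained under GE. The difference was 5.12 ± 0.84 (adjusted p = 0.00219). KRT18, a keratin of simple epithelia, was at 81.4, 96.8, 94.3 and 86.5 CPM in GE and 7.17, 2.06, 1.16 and 12.5 CPM in S, again without overlap, with a difference of 4.11 ± 0.55 (adjusted p = 9.18e-04). ERBB3, the neuregulin receptor, reached 5.67 ± 0.36 (adjusted p = 6.58e-05).

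The exceptions in the list were PROM1 and KRT7. PROM1, a protein of membrane protrusions, was at 3.15, 2.92, 4.71 and 0.906 CPM in GE and 23.9, 27.4, 8.51 and 37.5 CPM in S, higher in S in all 4 gilts without overlap (log2 difference -2.96 ± 0.62, adjusted p = 0.0065), and not called without the gilt of CG128, without gilt 40 or without gilt 78. KRT7 was not called, with a difference of 0.77. Without gilt 42 the list held 16 genes called higher in GE in place of 25. In gilts 40 and 42 alone, a pair chosen after the epithelial marker sums in S had been seen, 26 members were called higher in GE and the median difference was 7.25. With so few libraries the spread of each gene was taken mostly from all genes together. Calls in these gilts alone are therefore not on a par with those of 4 gilts.

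The bases before the start of the epithelial genes are shown because ZEB1, ZEB2 and the SNAI factors, which were called higher in S, are known repressors of E-cadherin that bind the E-box CAGGTG. The 250 bases before the annotated start were read from Sscrofa11.1 for 13145 of the genes tested, and CAGGTG was searched on both strands, so that CACCTG is its reverse complement. It was found in 18.3% of all windows, in 26.8% of the 1263 windows of genes called at least 4-fold higher in GE and in 16% of the 1976 of genes called at least 4-fold higher in S. In the epithelial identity list 16 of 27 windows (59.3%) held it, in the cell junction list 12 of 30, and in the stromal matrix list 4 of 43. Windows of CDH2 and PARD3, both called higher in S, were among the 12, and the window of ZEB1 itself held it as well. The epithelial identity and cell junction lists had the highest shares of the 28 lists. The E-box was in 32.3% of windows of retinoid, xenobiotic and steroid enzymes, 22.7% of gland transcription factors and 20.7% of motile cilia genes. It was in 21.1% of windows of fibroblast markers and 7.14% of gland secretory products. It occurred more than once in 7 members of the epithelial list, and 3 of them with large differences are shown, CDH1 (chr6:18155987-18156236, minus strand), GRHL2 (chr4:35565395-35565644, minus strand) and CRB3 (chr2:72623267-72623516, minus strand). Each is given 5′ to 3′ on the strand of the gene, ending at the base before the start, with the E-box in capitals.
CDH1: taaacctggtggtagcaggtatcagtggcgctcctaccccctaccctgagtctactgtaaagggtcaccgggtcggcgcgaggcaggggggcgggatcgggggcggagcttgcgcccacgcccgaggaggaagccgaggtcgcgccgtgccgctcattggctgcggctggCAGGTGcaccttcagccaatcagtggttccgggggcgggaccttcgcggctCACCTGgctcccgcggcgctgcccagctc
GRHL2: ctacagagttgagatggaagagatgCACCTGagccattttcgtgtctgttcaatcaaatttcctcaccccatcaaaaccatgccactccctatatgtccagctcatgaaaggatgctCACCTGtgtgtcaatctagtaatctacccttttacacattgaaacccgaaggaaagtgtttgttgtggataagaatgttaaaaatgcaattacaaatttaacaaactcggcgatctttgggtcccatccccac
CRB3: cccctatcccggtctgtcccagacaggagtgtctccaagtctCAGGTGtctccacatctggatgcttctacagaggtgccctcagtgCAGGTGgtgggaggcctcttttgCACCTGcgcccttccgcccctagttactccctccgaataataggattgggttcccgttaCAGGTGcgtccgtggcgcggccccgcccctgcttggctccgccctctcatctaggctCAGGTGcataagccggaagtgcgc
The CDH1 window held 2 E-boxes, at 80 and 29 bases before the start. GRHL2, a grainyhead-like activator of epithelial genes, had 2 farther out, at 225 and 133 bases. CRB3, an apical polarity protein, had 5. A match says only that these letters are in the window, and binding or repression there was not tested.

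Cell junction genes followed the epithelial ones in part. Of 30 tested, 18 were called higher in GE and 5 in S, with a median difference of 1.89. In a fit of genes in both filtered tables, 10 of 21 were called higher in GE and 3 in S. Desmosome and tight junction components led the GE side. DSG2, a desmosomal cadherin, was at 176, 131, 138 and 108 CPM in GE and 4.38, 1.18, 1.93 and 4.82 CPM in S (log2 difference 5.45 ± 0.37, adjusted p = 7.46e-05). DSP, which links desmosomes to keratin, differed by 5.44 ± 0.90 (adjusted p = 0.00229) and CLDN3, a tight junction claudin, by 5.16 ± 0.76 (adjusted p = 0.00138). The opposite direction was taken by other cadherins. CDH11, a cadherin of mesenchymal cells, was at 20.7, 12.4, 9.84 and 8.38 CPM in GE and 237, 172, 219 and 170.2 CPM in S, and every S value exceeded every GE value (log2 difference -4.02 ± 0.23, adjusted p = 4.92e-05). N-cadherin CDH2 was also higher in S (-4.83), as was the polarity scaffold PARD3 (-1.29) and the tight junction scaffold TJP1 (-0.79). P-cadherin CDH3, the other member called higher in S, had no count in GE. Without gilt 40, 10 members were called higher in GE, and without gilt 40, 42 or 78 the number higher in S was 3.

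Transcription factors known from glands were mostly higher in GE and those known from mesenchyme mostly higher in S. Of 22 gland factors tested, 17 were called higher in GE and 1 in S (median 3.75). Of 26 stromal factors, 22 were called higher in S and 1 in GE (median -3.97). Of the members in both filtered tables, 8 of 12 gland factors were called higher in GE, and 14 of 18 stromal factors higher in S. FOXA2, the forkhead factor needed for gland development, was at 96.9, 69.1, 83.6 and 78.1 CPM in GE and 3.98, 0.295, 1.16 and 0.357 CPM in S. The GE values lay close together and far above S, and the difference was 5.96 ± 0.51 (adjusted p = 1.50e-04). HNF4G, a hepatocyte nuclear factor, differed by 5.38. SOX17, which acts with FOXA2 in glands, was at 418, 204, 199 and 217 CPM in GE and 39.4, 26.5, 14.3 and 65.7 CPM in S. Its level in GE was highest in CG128, no values overlapped, and the difference was 2.95 ± 0.36 (adjusted p = 5.99e-04). TFAP2A was the only gland factor called higher in S (-4.87).

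On the stromal side HAND2, the progesterone-regulated factor that restrains growth factor signalling to the epithelium, was at 0, 0.973, 1.07 and 0.453 CPM in GE and 22.7, 22.4, 14.3 and 20.2 CPM in S. Each GE library was near or under 1 CPM, and the difference was -4.94 ± 0.57 (adjusted p = 4.82e-04). TWIST1 differed by -4.84 ± 0.32 (adjusted p = 6.96e-05) and HEYL, an effector of Notch signalling, by -5.78 ± 0.45 (adjusted p = 1.08e-04). ZEB1, at 27.2, 27.7, 29.9 and 16.5 CPM in GE and 275, 509.7, 549 and 312 CPM in S, and ZEB2, at 25.4, 22.4, 13.7 and 10.9 CPM in GE and 368, 390.1, 309.7 and 268 CPM in S, are repressors of epithelial genes. Both were higher in S in every gilt without overlap, by -3.99 ± 0.23 (adjusted p = 4.92e-05) and -4.27 ± 0.20 (adjusted p = 4.67e-05). GATA2, a factor that works with the progesterone receptor, was the exception and was higher in GE (log2 difference 1.35 ± 0.21, adjusted p = 0.00164), a call lost without gilt 40.

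HOX genes, which pattern the reproductive tract, divided by cluster. Of 21 tested, 8 were called higher in GE and 9 in S, and their median difference of 1.43 described neither set and was -1.79 over the 12 genes in both filtered tables. The GE table alone held 6 of the 21 and the S table alone 3. In the fit of genes in both tables, 4 of 12 were called higher in GE and 6 in S. The counts by cluster below include genes that were in 1 table alone. All 5 HOXD genes tested were called higher in S. Of 6 HOXB genes, 5 were called higher in GE and none in S. The HOXA cluster was split, with HOXA2, HOXA3 and HOXA4 called higher in GE and HOXA6, HOXA9, HOXA10 and HOXA11 higher in S. The grouping by cluster was made after the values had been seen. HOXA2 was at 42.7, 38.9, 45.1 and 35.1 CPM in GE and 1.99, 2.65, 0 and 0.535 CPM in S, with all GE libraries above all S libraries (log2 difference 4.96 ± 0.52, adjusted p = 3.43e-04). HOXA10 and HOXA11, which are required for implantation in other species, were at 234, 170.3, 184 and 144 CPM and 76.6, 71.6, 82.4 and 59.2 CPM in S. In GE they stood at 10.1, 10.7, 11.98 and 13.4 CPM and 3.82, 3.40, 5.56 and 3.40 CPM. Neither gene overlapped between compartments, and the differences were -3.97 ± 0.22 (adjusted p = 4.92e-05) and -4.16 ± 0.19 (adjusted p = 4.67e-05). HOXD9, HOXD10 and HOXD11 differed by -5.23, -4.61 and -4.80. Antisense transcripts run through the HOX clusters, and it was not stated whether the counting used strand.

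Motile cilia genes had the highest median of the 28 lists. Of 29 tested, 25 were called higher in GE and none in S, with a median difference of 4.74. The GE table alone held 21 of the 29, which were thus chosen through the compartment in which they were high, and of the 8 genes in both, 4 were called. The count over the list is for this reason a description only. FOXJ1, the factor that switches on motile ciliogenesis, was at 58.9, 25.8, 31.0 and 39.4 CPM in GE and was seen in CS128 only, at 0.597 CPM. With 3 counts in all S libraries its ratio was 215-fold (95% exact interval 73.4 to 1047), an interval that covers counting error only. CCDC78, which acts in the amplification of centrioles, was at 11.9, 6.32, 10.9 and 12.002 CPM in GE and had no count in S, so it was at least 57.4-fold higher in GE against 3 counts over the S libraries. SPAG17, of the central pair of the axoneme, was at 66.4, 27.96, 35.9 and 57.1 CPM in GE and 0.796, 0.295, 0 and 0 CPM in S (log2 difference 7.29 ± 0.52, adjusted p = 8.64e-05). In LE of the same gilts FOXJ1 averaged 4.22 CPM and SPAG17 4.68 CPM when all 16 cyclic libraries were scaled together, against 37.6 and 45.4 CPM in GE.

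Among genes called with all 4 gilts moving the same way and a mean of at least 50 CPM, those with the largest differences toward GE included secreted proteins and enzymes. DTHD1 was at 98.7, 18.5, 36.6 and 66.1 CPM in GE and had 3 counts in S, a ratio of 307-fold (95% exact interval 105 to 1490.0). It was followed by UABP-2, a serpin of the uteroferrin-associated family (7.88), the serpin SERPINI2 (7.80), the metalloprotease MEP1B (7.63), the glycosyltransferase B4GALNT3 (7.37) and FAM84A (7.14). CCDC190, SYT13, ADAMTS18 and LGI2 completed the 10 largest, with 7.06, 7.03, 6.86 and 6.83.

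Several of these were far lower in CG128 than in the other GE libraries. MEP1B was at 4.05, 1587, 2299.5 and 3114 CPM in GE and 0.796, 2.36, 15.1 and 13.4 CPM in S, so that CG128 overlapped with S. LGI2 was at 2.25, 234, 235 and 72.2 CPM in GE and 0.199, 1.18, 3.09 and 0.357 CPM in S, where it overlapped as well. SYT13, a vesicle trafficking protein, was at 169, 5386, 4138 and 3078 CPM in GE and 25.3, 8.54, 51.0 and 6.25 CPM in S. Its S values were far lower and CG128 remained above them. The call of SYT13 was lost without gilt 40, 42 or 78.

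**Figure D3:**
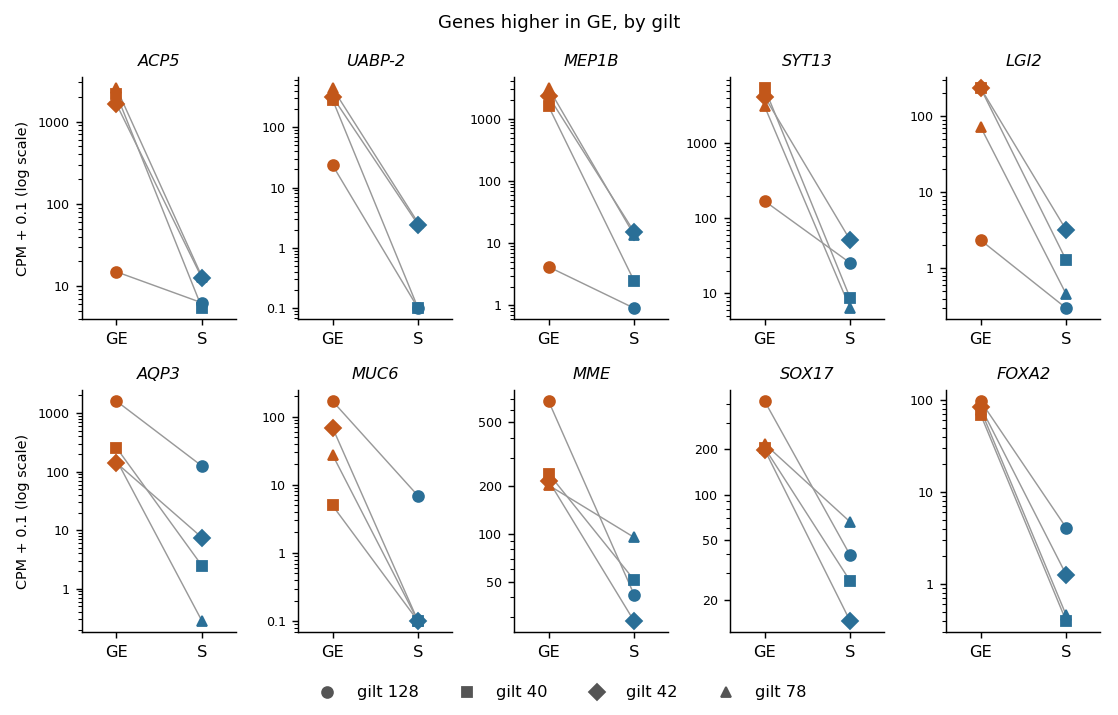
Level (CPM, log axis) of single genes in GE and S of each of the 4 cyclic gilts, with lines joining the libraries of a gilt. FOXA2 kept a similar GE level in all gilts, and ACP5 was at 14.8 CPM in CG128 against 1629 to 2548 CPM in the other gilts.

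Secreted gland products were called in both directions. Of 28 tested, 8 were called higher in GE and 9 in S. The median was -0.06 and between 0.006 and 0.19 in 8 other settings, so it had no stable sign. ACP5, uteroferrin, the iron-carrying acid phosphatase of pig histotroph, was at 14.8, 2138, 1629 and 2548 CPM in GE and 6.17, 5.30, 12.4 and 12.8 CPM in S. CG128 was just above the S libraries and the other GE libraries were far above all of them. The difference was 6.65 ± 1.39 (adjusted p = 0.00631), and the call was lost without gilt 40, 42 or 78. RBP4, the retinol carrier, had the same shape with 11.5, 461, 422 and 721 CPM in GE and 2.79, 3.54, 8.89 and 65.8 CPM in S (log2 difference 4.54 ± 0.80, adjusted p = 0.00304), and CG128 lay within the S range. CLU, clusterin, was at 176, 783, 589 and 653 CPM in GE and 20.1, 15.03, 17.0 and 61.0 CPM in S without overlap (log2 difference 4.30 ± 0.51, adjusted p = 5.34e-04).

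Toward S were SPP1, osteopontin, APOA1, an apolipoprotein, and CTSH, a cathepsin. SPP1, an attachment protein that pig luminal epithelium makes near the conceptus, was at 7.20, 2.92, 1.93 and 4.53 CPM in GE and 110.3, 93.1, 33.6 and 131 CPM in S (log2 difference -4.46 ± 0.25, adjusted p = 4.92e-05). All S values exceeded all GE values. The differences of APOA1 and CTSH were -3.36 and -3.20, and that of APOA1 was not called without gilt 42 or 78. The count of members called higher in GE fell from 8 to 3, 1 and 4 without gilt 40, 42 and 78.

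Genes of the general secretory machinery were called in 23.1% of cases, against 39.7% of all genes. Of 52 genes for translocation, folding and transport out of the endoplasmic reticulum, 40 were not called, 7 were called higher in GE and 5 in S, with a median of 0.19. The coat protein SEC23B was at 178, 139.8, 147 and 115 CPM in GE and 54.1, 39.5, 48.3 and 40.5 CPM in S (log2 difference 1.66 ± 0.15, adjusted p = 1.67e-04), with no overlap. The stress sensor ERN1 differed by 1.29, and the signal peptidase subunit SPCS2 by 0.97. KDELR3, a retrieval receptor, was lower in GE at 12.1, 8.51, 6.84 and 6.57 CPM against 85.2, 103.7, 111 and 54.8 CPM (log2 difference -3.36 ± 0.25, adjusted p = 9.29e-05). SEC24D, a coat protein that carries procollagen, differed by -1.87. The other members higher in S were SSR4 (-1.17), ERO1B (-3.17) and CREB3L2 (-0.84). Without gilt 40, 42 or 78 the count higher in GE was 2, 2 and 1, and without gilt 40 or 42 the count higher in S was 3.

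Ion and water transporters were called in both directions. Of 31 tested, 12 were called higher in GE and 9 in S (median 1.35). The GE table alone held 7 of the 31 and the S table alone 9. In a fit of genes in both filtered tables, 6 of 15 were called higher in GE and 3 in S. AQP3, a channel for water and glycerol, was at 1602, 256, 141 and 158 CPM in GE and 124, 2.36, 7.35 and 0.178 CPM in S. CG128 and CS128 were the highest of their compartments, and GE of every gilt exceeded S (log2 difference 5.33 ± 0.81, adjusted p = 0.00155). CFTR, the epithelial chloride channel, was at 115, 90.7, 86.4 and 84.2 CPM in GE and 7.17, 2.36, 0 and 2.50 CPM in S, with similar GE values in all gilts (log2 difference 5.06 ± 0.52, adjusted p = 3.10e-04). SLC30A2, a zinc exporter of secretory vesicles, reached 6.08 ± 0.997 (adjusted p = 0.00218) but was not called without gilt 40 or 42. On the S side the zinc importer SLC39A8 (-4.27) and the potassium channel KCNJ8 of mural cells (-5.09) were among those called. ATP1B1, the beta subunit of the sodium pump, was called higher in GE with 3.22.

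Among mucins and the enzymes that glycosylate them, 10 of 24 tested were called higher in GE and 7 in S (median 0.74). In a fit of genes in both filtered tables, 7 of 13 were called higher in GE and 2 in S. MUC1, a membrane mucin, was at 39.4, 127.7, 108 and 155 CPM in GE and 7.76, 0.295, 0 and 8.57 CPM in S (log2 difference 4.69 ± 0.91, adjusted p = 0.0045), and its call was lost without gilt 40, 42 or 78. MUC6, a gel-forming mucin of glands, was at 168, 4.86, 68.7 and 27.4 CPM in GE and was detected in CS128 only, at 6.77 CPM, above CG40 (log2 difference 5.74 ± 0.66, adjusted p = 4.99e-04). ST6GALNAC1, which caps mucin glycans with sialic acid, differed by 5.78. The initiating enzymes GALNT7 and GALNT16 and the chain-extending B3GNT3 were higher in S with -4.21, -4.16 and -4.74. Without gilt 42 the list held 4 members called higher in S.

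The matrix of the stroma was the reverse of the epithelial list. Of 44 collagens and matrix proteins tested, 37 were called higher in S and 1 in GE (median -3.75). Fibrillar collagen COL1A1 was at 1965, 909.6, 1006 and 643 CPM in GE and 19246, 15542, 18509 and 8155 CPM in S and COL3A1 at 3214, 2936, 2607 and 1330.2 CPM in GE and 33425, 44591, 58146 and 15664 CPM in S. Both were higher in S in every gilt, and CS78 was the lowest of its group. The differences were -3.81 ± 0.27 (adjusted p = 8.16e-05) and -3.83 ± 0.31 (adjusted p = 1.21e-04). The proteoglycan DCN, decorin, differed by -3.56 ± 0.26 (adjusted p = 8.78e-05). The same gilts' fibroblast marker sum in GE was 7.33% of that in S on average. VIM, the intermediate filament of mesenchymal cells, was at 72.4, 78.8, 55.2 and 71.6 CPM in GE and 1245, 1628, 1251 and 1709 CPM in S (log2 difference -4.39 ± 0.19, adjusted p = 4.67e-05), without overlap.

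Larger differences were fitted for POSTN, periostin (-6.49), ASPN, asporin (-5.97), and THBS1, thrombospondin (-5.52). FMOD, a collagen-binding proteoglycan, was the member higher in GE, at 616, 322, 736 and 263 CPM in GE and 281, 64.2, 97.8 and 43.2 CPM in S. CG78 lay under CS128 so the groups overlapped, although each gilt's GE value was above its own S value (log2 difference 2.25 ± 0.31, adjusted p = 0.00112). In the fibroblast marker list the exception was MME, a surface peptidase used to mark endometrial stroma. It was at 681, 239, 216 and 202 CPM in GE and 41.4, 51.3, 28.2 and 94.9 CPM in S and so was higher in GE without overlap (log2 difference 2.56 ± 0.48, adjusted p = 0.00376), and that call was lost without gilt 40 or 42.

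Of 34 basement membrane genes and their receptors, 23 were called higher in S and 5 in GE (median -3.42). The S side held the type IV chain COL4A6 (-5.17), COL15A1 (-5.55) and the collagen-binding integrin ITGA1, which was at 13.9, 16.8, 2.35 and 8.61 CPM in GE and 507, 565, 241 and 636 CPM in S (log2 difference -5.70 ± 0.34, adjusted p = 5.40e-05). Epithelial integrins took the GE side. ITGA3, a laminin receptor, was at 21.6, 27.96, 32.1 and 31.5 CPM in GE and 1.99, 2.65, 2.32 and 11.96 CPM in S (log2 difference 2.81 ± 0.44, adjusted p = 0.00173), with CS78 the nearest to GE, and was not called without gilt 40 or 42. ITGB6, of the epithelial integrin that activates TGF beta, had 3 counts in S and a ratio of 55.5-fold (95% exact interval 18.7 to 272). DAG1, dystroglycan, differed by 1.78. The laminin receptor subunit ITGA6 was also called higher in GE (1.47). The number higher in GE was 8 without the gilt of CG128, 2 without gilt 40 and 3 without gilt 42.

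Matrix proteases and their inhibitors were mostly higher in S, 21 of 30 tested, with 3 higher in GE (median -3.27). PLAT, tissue plasminogen activator, was at 0.675, 1.95, 0.856 and 0.226 CPM in GE and 34.8, 77.8, 33.6 and 69.4 CPM in S (log2 difference -5.83 ± 0.40, adjusted p = 7.56e-05), and ADAM12 differed by -4.99. SERPINE2, an inhibitor of plasminogen activators, had 3 counts in GE and a ratio of 74.4-fold (95% exact interval 25.1 to 364) toward S. HTRA1, a secreted serine protease, was at 563, 159, 319.5 and 121 CPM in GE and 89.4, 52.7, 60.3 and 51.6 CPM in S and was higher in GE without overlap (log2 difference 1.97 ± 0.27, adjusted p = 0.00109). TIMP4 and ADAM28 were the other two, with 2.16 and 2.08.

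**Figure D4:**
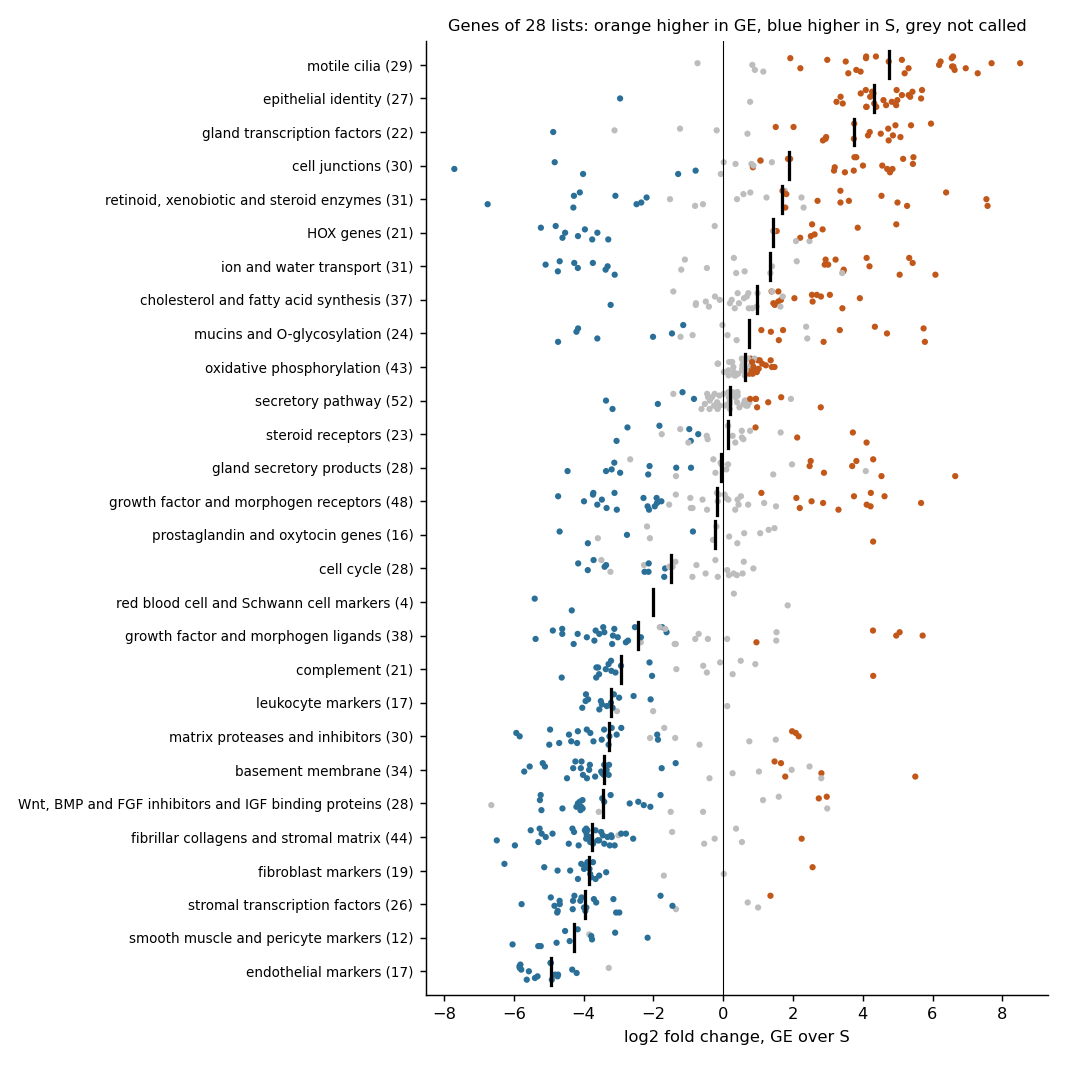
Fitted log2 difference (GE minus S) of the tested members of each gene list in cyclic gilts, 1 point per gene, with called genes coloured by direction and the list median marked. Motile cilia (4.74) and epithelial identity (4.33) have the highest medians and endothelial markers (-4.95) the lowest.

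Most of the growth factor ligands called were higher in S. Of 38 ligands tested, 22 were called higher in S and 5 in GE (median -2.447), with 17 and 1 among the 22 in both filtered tables. Receptors were shared, with 16 of 48 called higher in S, 12 in GE and 20 not called (median -0.17, and 0.04 in gilts 40 and 42 alone). Inhibitors of Wnt, BMP and FGF signals and IGF binding proteins again lay toward S, 19 of 28, with 2 in GE (median -3.44). The S table alone held 11 of these 28. In a fit of genes in both filtered tables, 9 of 15 were called higher in S and 1 in GE. The number of ligands called higher in GE was 2 without the gilt of CG128 and 3 without any other gilt.

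FGF10, a stromal ligand for epithelial FGF receptors, was at 2.70, 6.32, 4.06 and 4.08 CPM in GE and 42.6, 192, 171 and 139.2 CPM in S, and every S library was far above every GE library (log2 difference -4.88 ± 0.27, adjusted p = 4.88e-05). FGFR2, the receptor whose epithelial form binds FGF10 and FGF7, was at 20.5, 54.7, 160.0 and 154 CPM in GE and 5.18, 0.295, 1.55 and 14.3 CPM in S. It was higher in GE without overlap (log2 difference 4.11 ± 0.76, adjusted p = 0.00379), and the call was lost without gilt 40, 42 or 78. FGFR3 differed by 4.23, with CG128 at 13.0 CPM against 63.2 to 66.7 CPM in the others, and was not called without gilt 40. FGF7 was at 0, 19.9, 14.8 and 59.3 CPM in GE and 12.9, 22.1, 49.9 and 89.8 CPM in S. Its groups overlapped and it was not called (log2 difference -1.36 ± 0.66, adjusted p = 0.122).

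NRG1, a ligand of ERBB receptors, was at 1.7995, 2.19, 2.99 and 5.21 CPM in GE and 80.6, 133, 93.2 and 205 CPM in S, without overlap (log2 difference -5.38 ± 0.22, adjusted p = 4.67e-05). Its receptor ERBB3 was at 168, 495, 238 and 369 CPM in GE and 6.17, 4.42, 3.87 and 8.57 CPM in S, in the opposite direction. HGF, the scatter factor, was at 1.12, 0.729, 0.642 and 1.59 CPM in GE and 16.1, 14.4, 30.5 and 45.1 CPM in S and was higher in S (log2 difference -4.61 ± 0.33, adjusted p = 8.64e-05). MET, the receptor of HGF, was at 20.5, 97.02, 36.1 and 125 CPM in GE and 41.6, 27.7, 16.6 and 68.9 CPM in S. The groups of MET overlapped and it was not called (log2 difference 0.71 ± 0.44, adjusted p = 0.208). It was called higher in GE without the gilt of CG128 and in gilts 40 and 42 alone.

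IGF1, which is made in the endometrium under estrogen, was at 268, 226, 354 and 178 CPM in GE and 1834, 4190.1, 5347 and 2555 CPM in S (log2 difference -3.69 ± 0.30, adjusted p = 1.23e-04). Its receptor IGF1R was at 324, 307, 382 and 371 CPM in GE and 152, 189, 101 and 229.8 CPM in S, higher in GE in each gilt without overlap (log2 difference 1.09 ± 0.24, adjusted p = 0.00793), but the call was lost when any one gilt was left out. IGF2 differed by -4.62. The binding proteins IGFBP7, at 29.2, 46.2, 20.1 and 33.3 CPM in GE and 895, 923, 510.0 and 766 CPM in S (log2 difference -4.61 ± 0.19, adjusted p = 4.67e-05), and IGFBP3 (-5.25) were also higher in S.

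In the Wnt pathway the ligand WNT5A was at 21.1, 16.8, 16.04 and 18.3 CPM in GE and 141, 289, 174 and 206 CPM in S and was higher in S without overlap (log2 difference -3.44 ± 0.25, adjusted p = 9.11e-05). Its receptor ROR1 differed by -4.73. The frizzled receptor FZD5, which is known from uterine epithelium, was at 429, 383, 293 and 346 CPM in GE and 31.9, 6.48, 5.41 and 27.7 CPM in S (log2 difference 4.62 ± 0.48, adjusted p = 3.25e-04). DKK1, a secreted Wnt inhibitor, was at 4.27, 6.32, 5.56 and 19.5 CPM in GE and 99.7, 497, 312 and 403 CPM in S and was higher in S by far (log2 difference -5.23 ± 0.40, adjusted p = 1.00e-04). KREMEN1, a receptor of DKK proteins, and NOTUM, which removes the lipid from Wnt ligands, were the inhibitors higher in GE with 2.97 and 2.74.

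IHH, the progesterone-regulated epithelial hedgehog ligand, was at 15.5, 1.702, 5.35 and 4.30 CPM in GE and had 2 counts in S, both in CS128. The ratio was 56.5-fold (95% exact interval 15.3 to 472), and IHH was not called without the gilt of CG128. PTCH1, the hedgehog receptor and target, was at 87.5, 35.3, 39.6 and 23.6 CPM in GE and 286, 36.2, 70.0 and 49.8 CPM in S. CS128 was far above the other S libraries, the groups overlapped, and PTCH1 was not called (log2 difference -0.93 ± 0.27, adjusted p = 0.0254). WNT7A was in neither filtered table, and its summed counts were 3 in GE and 12 in S.

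Activin subunits, FGF9 and EREG made up the other ligands higher in GE. INHBB was at 15.5, 44.0, 15.4 and 43.03 CPM in GE and 2.39, 1.47, 1.16 and 0.535 CPM in S (log2 difference 4.29 ± 0.55, adjusted p = 8.04e-04), INHBA differed by 0.95, the fibroblast growth factor FGF9 by 5.06, and the epidermal growth factor family ligand EREG by 4.96. The INHBA call was lost when any one gilt was left out. The platelet-derived growth factor receptors PDGFRA and PDGFRB, markers of fibroblasts and mural cells, were higher in S with -3.73 and -3.99.

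**Figure D5:**
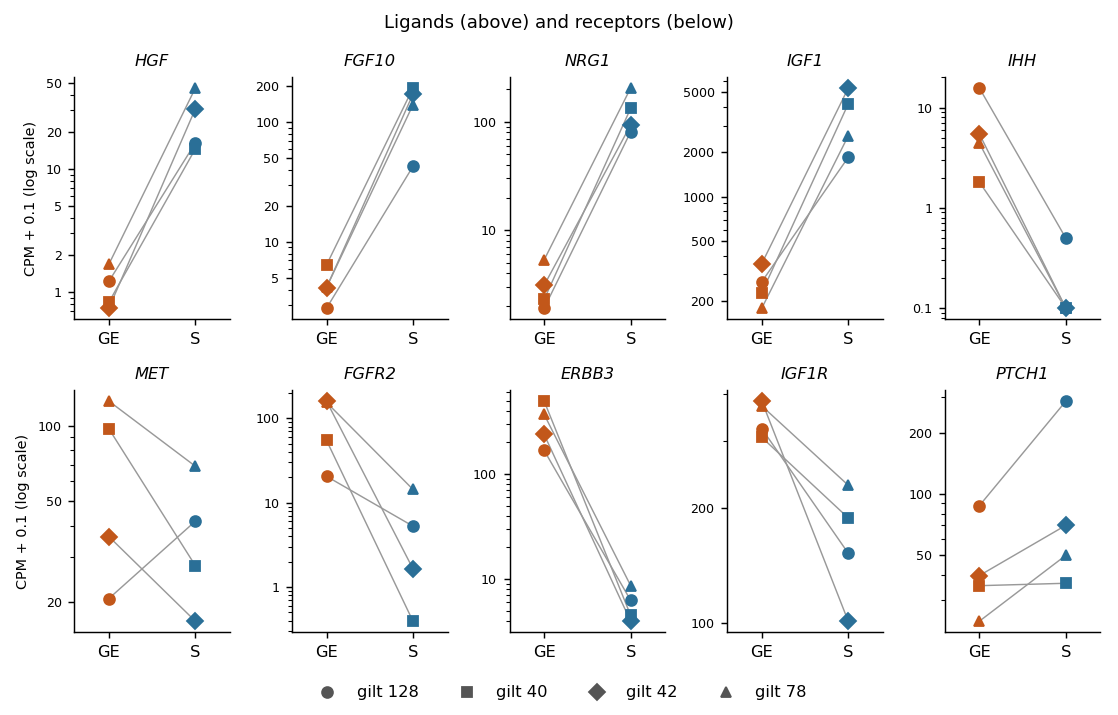
Level (CPM, log axis) of ligands (above) and of their receptors (below) in GE and S of each cyclic gilt, with lines joining the libraries of a gilt. Colour marks the compartment. The fitted log2 differences of FGF10 (-4.88), NRG1 (-5.38) and HGF (-4.61) were toward S. Those of FGFR2 (4.11) and ERBB3 (5.67) were toward GE.

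Steroid and nuclear receptors and their cofactors were called about as often as all genes. Of 23 tested, 10 were called (43.5%, against 39.7% of all genes), 6 higher in S and 4 in GE. The median was 0.14, and it was -0.22 without the gilt of CG128, -0.17 over genes in both tables and -0.02 in gilts 40 and 42 alone. PGR, the nuclear progesterone receptor, was at 106, 49.6, 58.0 and 39.6 CPM in GE and 162, 269.9, 189 and 229 CPM in S. Every S value was above every GE value (log2 difference -1.83 ± 0.34, adjusted p = 0.00392), but the call was lost without gilt 40, 42 or 78. ESR1, estrogen receptor alpha, was at 661, 462, 509 and 392 CPM in GE and 361, 292, 229 and 298 CPM in S. Each gilt had more in GE and the groups did not overlap, but the gene was just over the threshold (log2 difference 0.77 ± 0.18, adjusted p = 0.01). It was called higher in GE in 9 of 13 other settings, among them DESeq2 and the other normalizations, and in none of the 4 fits without 1 gilt. PGRMC1, a membrane-associated progesterone binding protein, was at 709.9, 1039, 1208 and 1019 CPM in GE and 116, 46.3, 67.3 and 84.4 CPM in S (log2 difference 3.72 ± 0.35, adjusted p = 2.17e-04). The membrane progestin receptor PAQR5 differed by 4.11 and the receptor chaperone FKBP4 by 2.12, both toward GE, as did the coactivator NCOA2 with 0.93. The retinoic acid receptors RARA and RARG were higher in S with -2.75 and -3.06. The list held 2 members higher in S without gilt 40, 2 without gilt 42 and 3 without gilt 78.

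Of 16 prostaglandin and oxytocin genes tested, 4 were called higher in S and 1 in GE (31.25% in all, against 39.7% of all genes, median -0.25). PTGER2, a receptor of prostaglandin E2, was at 46.1, 470.3, 265 and 305 CPM in GE and 6.17, 6.78, 7.73 and 29.8 CPM in S, higher in GE in each gilt without overlap (log2 difference 4.30 ± 0.57, adjusted p = 9.27e-04). PTGIS, prostacyclin synthase, was at 8.77, 8.27, 4.71 and 7.25 CPM in GE and 221, 184, 188 and 151 CPM in S, in the opposite direction (log2 difference -4.69 ± 0.22, adjusted p = 4.67e-05). ABCC4, a prostaglandin exporter, and PTGDS, prostaglandin D synthase, were higher in S with -3.88 and -2.76, and the aldo-keto reductase AKR1B1 with -0.87.

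PTGS2, the inducible cyclooxygenase, was at 0, 0.243, 0 and 31.0 CPM in GE and 1.99, 5.89, 2.32 and 49.8 CPM in S. In both compartments it was high in gilt 78 alone, and it was not called (log2 difference -2.10 ± 0.76, adjusted p = 0.052). It was called higher in S without gilt 78, in gilts 40 and 42 alone, by DESeq2 and by the robust likelihood ratio test. HPGD, which inactivates prostaglandins, was at 1.35, 0.973, 4.92 and 31.7 CPM in GE and 68.1, 109, 22.0 and 106 CPM in S, with overlap through CG78 (log2 difference -3.59 ± 0.85, adjusted p = 0.0104), and it was called without gilt 78 and in 5 of 13 other settings, DESeq2 included. OXTR, the oxytocin receptor, was at 0.9, 4.38, 5.35 and 2.49 CPM in GE and 22.1, 12.7, 19.7 and 6.25 CPM in S and just missed the threshold (log2 difference -2.18 ± 0.53, adjusted p = 0.0114). It was called without the gilt of CG128 and in 5 of 13 other settings, DESeq2 included. PTGS1 was in neither filtered table, with 6 counts in GE and 36 in S. Without gilt 42, 2 members of the list were called higher in S.

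Enzymes and carriers of retinoids, xenobiotics and steroids were called higher in GE for 13 of 31 tested and in S for 8 (median 1.698). In a fit of genes in both filtered tables, 8 of 20 were called higher in GE and 5 in S. Retinoic acid synthesis was divided by isoform. ALDH1A2 was at 16.6, 11.9, 16.5 and 17.0 CPM in GE and 150.3, 367, 436 and 328 CPM in S, higher in S without overlap (log2 difference -4.28 ± 0.33, adjusted p = 1.12e-04), while ALDH1A3 was higher in GE by 3.36. STRA6, the cell's receptor for the retinol carrier RBP4, was at 5.62, 6.08, 5.13 and 9.06 CPM in GE and 88.0, 138, 99.4 and 122 CPM in S (log2 difference -4.11 ± 0.20, adjusted p = 4.67e-05), the reverse of RBP4 itself. GSTA1, a glutathione transferase, was at 160.4, 107, 279 and 686 CPM in GE and 19.9, 1.18, 3.48 and 18.4 CPM in S (log2 difference 4.995 ± 0.60, adjusted p = 6.06e-04), and UGT8 differed by 5.27. The cytochrome CYP2C34 had no count in CG128, 38.7, 39.4 and 11.8 CPM in the other gilts and 3 counts in S, a ratio of 124-fold (95% exact interval 42.1 to 603). CYP2C genes share long stretches of sequence, so how their counts divide among copies is uncertain. Without gilt 42 the list held 7 members higher in GE.

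The genes of energy and lipid metabolism that were called were higher in GE, except FADS2. Of 43 nuclear genes of oxidative phosphorylation, 16 were called higher in GE, none in S (median 0.63). The differences were modest. NDUFA4 was at 172, 149, 164 and 149 CPM in GE and 79.2, 55.7, 67.7 and 43.5 CPM in S, without overlap (log2 difference 1.39 ± 0.17, adjusted p = 5.75e-04), and NDUFC2 and NDUFA2 of complex I differed by 1.47 and 1.36. Without gilt 40, 42 or 78 the count fell from 16 to 3, 3 and 4. These are 6.98%, 6.98% and 9.3% of the list, under the 10.37%, 11.137% and 12% of all genes called higher in GE in the same fits, against 37.2% of the list and 17.9% of all genes with 4 gilts. Of 37 genes of cholesterol and fatty acid synthesis, 14 were called higher in GE and 1 in S (median 0.96). SC5D, a late enzyme of cholesterol synthesis, was at 99.0, 91.7, 102 and 103 CPM in GE and 17.7, 8.84, 7.73 and 14.5 CPM in S (log2 difference 3.06 ± 0.24, adjusted p = 1.19e-04). ACSL3, which activates fatty acids, and HSD17B7 differed by 3.92 and 3.42. The fatty acid desaturase FADS2 was higher in S (-3.23).

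Most complement genes and a smaller part of the cell cycle genes were called higher in S. Of 21 complement genes, 13 were called higher in S, and CLU, an inhibitor of the terminal complex, was the 1 called higher in GE (median -2.93). C7, a component of the terminal complex, was at 0.9, 6.32, 2.78 and 4.08 CPM in GE and 38.2, 121, 85.8 and 84.4 CPM in S (log2 difference -4.63 ± 0.24, adjusted p = 4.67e-05). C1QA and C1S differed by -3.64 and -3.64. Of 28 cell cycle genes, 10 were called higher in S, none in GE and 18 not at all (median -1.5003). The share called was 35.7%, against 39.7% of all genes, of which 21.8% were called higher in S. The S table alone held 9 of the 28. In a fit of genes in both filtered tables, 4 of 18 were called higher in S, as were 17.3% of all genes in that fit. MKI67, a marker of dividing cells, was at 1.7995, 3.65, 0 and 0.679 CPM in GE and 55.1, 14.1, 5.41 and 37.1 CPM in S. S values ranged widely and every one exceeded every GE value (log2 difference -4.16 ± 0.68, adjusted p = 0.00219), but the call was lost without gilt 42 or 78. TOP2A, of dividing cells as well, differed by -3.72, and the cycle inhibitor CDKN2C by -3.88. The count was 7 without the gilt of CG128 or without gilt 40, 3 without gilt 42 (10.7%, under the 14.9% of all genes called higher in S in that fit) and 5 without gilt 78. The summed leukocyte and endothelial markers were also higher in S of every gilt, and their part in the complement and cell cycle lists was not tested.

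Most tested markers of cells that lie within the stroma were higher in S. Of 17 endothelial markers, 16 were called higher in S (median -4.95), and of 12 smooth muscle and pericyte markers, 11 (median -4.29), a count of 7 without gilt 42. In both filtered tables were 7 endothelial markers, all called, and 6 of smooth muscle and pericytes, of which 5 were called. KDR, the VEGF receptor of endothelium, was at 3.82, 3.16, 3.21 and 7.25 CPM in GE and 243, 225, 100.2 and 528 CPM in S (log2 difference -5.84 ± 0.27, adjusted p = 4.67e-05). ACTA2, smooth muscle actin, was at 6.07, 72.7, 2.78 and 1.59 CPM in GE and 428, 389, 138.8 and 317 CPM in S, with CG40 well above the other GE libraries (log2 difference -5.30 ± 0.87, adjusted p = 0.00214), and was not called without gilt 42. Of 17 leukocyte markers, 14 were called higher in S (median -3.22), among them the macrophage genes CD163 (-3.93) and CSF1R (-3.55). Among these 17, 8 were in the S table alone. A fit of genes in both filtered tables called 7 of 9 leukocyte markers higher in S. HBB, a haemoglobin chain, was at 7.20, 43.04, 6.42 and 4.53 CPM in GE and 319.7, 1206, 301 and 279 CPM in S, highest in gilt 40 in both compartments (log2 difference -5.404 ± 0.25, adjusted p = 4.67e-05). Of the 4 red blood cell and Schwann cell markers tested, HBB and ALAS2 (-4.34), an enzyme of haem synthesis, were called higher in S (median -2.02). The other 2, S100B and MBP, had fitted differences above 0 (the larger 1.85) and were not called. Of 19 fibroblast markers, 16 were called higher in S and 1 in GE (median -3.83).

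Under the same conditions the 10 genes with the largest differences toward S were COL13A1, a transmembrane collagen (-7.07), the neuropeptide receptor ADCYAP1R1 (-6.93), ADAM22 (-6.66), the opioid precursor PENK (-6.55), the matrix protein DPT (-6.27), the pericyte gene RGS5 (-6.04), ITM2A (-5.99), ASPN (-5.97), CYYR1 (-5.88) and the neuronal adhesion protein ASTN1 (-5.86). COL13A1 was at 0.675, 0, 1.07 and 1.13 CPM in GE and 57.3, 172, 48.7 and 175 CPM in S, without overlap (log2 difference -7.07 ± 0.58, adjusted p = 1.32e-04). PENK was at 6.30, 0.729, 1.07 and 0.226 CPM in GE and 265, 161, 90.9 and 121 CPM in S, with CG128 above the other GE libraries (log2 difference -6.55 ± 0.49, adjusted p = 9.57e-05). RGS5 was highest in CS78, at 968 CPM, and its call was lost without gilt 42.

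The same compartments of pregnant gilts, which are other animals on the same day, gave 4335 calls (32.4% of genes tested) from 3 pairs, 1948 higher in GE and 2387 in S. The genes called in the same direction in both groups numbered 3787, which is 71.4% of the calls in cyclic gilts and 87.4% of those in pregnant gilts. The fitted difference had the same sign in pregnant gilts for 5257 of the 5307 genes called in cyclic gilts, and 2 genes were called in opposite directions, ABHD15 (-3.13 in cyclic and 2.27 in pregnant gilts) and STON2 (1.35 and -1.76). In the test of the difference between cyclic and pregnant gilts no gene passed (0%) by edgeR's quasi-likelihood test, 1164 had an unadjusted p under 0.05, and the robust likelihood ratio test of edgeR called 86. EPCAM differed between compartments by 4.99 in pregnant gilts, FOXA2 by 6.79, HAND2 by -4.51 and FGF10 by -4.19, all in the direction seen in cyclic gilts. PTGS2, not called in cyclic gilts, was called in pregnant gilts with -5.72, and the difference between the groups was not called (adjusted p = 0.571).

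Several of the differences given above were not called at 1% once 1 gilt was left out, while their direction was kept each time. The highest adjusted p over the 4 fits of 3 gilts (edgeR's quasi-likelihood test), among genes higher in GE, was 0.0107 for FGFR3, 0.0107 for FAM84A, 0.011 for IHH, 0.012 for ITGA3, 0.0122 for DSP, 0.0127 for GATA2, 0.0152 for ERN1, 0.0169 for FGFR2, 0.0172 for TIMP4 and 0.0175 for SLC30A2. Among the further genes higher in GE it was 0.0178 for NDUFA2, 0.018 for MUC1, 0.0189 for SPCS2, 0.0233 for MME, 0.0234 for RBP4, 0.0235 for IGF1R, 0.0256 for SYT13, 0.0308 for DAG1, 0.0315 for INHBA and 0.0441 for ACP5. For genes higher in S it was 0.0101 for RGS5, 0.0112 for PTGDS, 0.0114 for MKI67, 0.0131 for APOA1, 0.0142 for TOP2A, 0.0181 for ACTA2, 0.019 for IGFBP3, 0.0216 for PGR, 0.0239 for SSR4, 0.0241 for TAGLN and 0.0383 for PROM1.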

How the data were processed

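Small amounts of RNA from laser-captured endometrium of gilts were sequenced after library preparation with an Ovation SoLo kit. The authors removed adaptors with Trim Galore and aligned the single reads by Hisat2 to the pig genome Sscrofa11.1. They took out PCR duplicates with nudup, and QuasR gave the number of reads for every gene of the NCBI annotation. Versions and strand settings are not given in the sources used here. The deposited values are whole, unnormalized counts per gene and library. The filtered tables, also of counts, held genes above a minimum CPM whose value is not given in the sources used here, and they served only to choose the genes tested.

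Counts were fitted in R 4.3.3 with edgeR 4.0.16 (TMM factors, quasi-likelihood test, limma 3.58.1) over the 13379 genes, with the gilt as a block, since GE and S of 1 number came from the same animal according to the labels. Same-numbered libraries therefore pair by animal. Pregnant gilts were fitted likewise with 3 pairs, and the difference between groups as an interaction. SE was derived from the coefficient and its F value. Calls were made at a false discovery rate of 1%. Genes with 1 to 3 counts in the lower compartment are given as a ratio with a 95% exact binomial interval, and genes with none as a bound against 3 counts over that compartment (0.17 CPM in GE, 0.181 CPM in S). Intervals and bounds cover counting error only. List medians did not change when such genes were set at their ratio or bound. Scripts were tested on simulated counts.

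Named genes were the 10 with the largest difference in each direction (mean of at least 50 CPM in the higher compartment, all gilts moving the same way, a symbol other than a LOC number), up to 3 called members per list and direction (at least 10 CPM), a fixed set of hormone, ligand and marker genes, and genes called in the difference between cyclic and pregnant gilts, which no gene met. Results of some genes are not reported here. Other list members named beside the counts were picked after their values had been seen. The comparison, the gene lists and the rules were chosen with earlier results of these data known. Promoter windows were read from the Sscrofa11.1 genome and annotation of NCBI. DESeq2 1.42.0, other normalizations and filters and leaving out each gilt were alternatives.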

Additional observations from a re-analysis of the deposited data

Results flagged for a closer look

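Among 326 sets of 4 libraries (named genes and marker sums), 41 (12.6%) had a library far from the others of its compartment. The chance share of the rule, about 1 in 20, is for independent sets of normally distributed values. These sets are CPM from the same 8 libraries, so the 12.6% cannot be set against it. The libraries concerned were CG128 in 10 cases, CG40 in 7, CG42 in 1 and CG78 in 4. In S they were CS128 in 6 cases, CS40 in 3 and CS78 in 10. No difference between cyclic and pregnant gilts passed its test.

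In CG128, AQP3 stood high at 1602 CPM (next 255.8), MME at 680.7 (next 239.0), SOX17 at 418.4 (next 217.4) and HOXB6 at 109.8 (next 55.03). SEC24D was at 83.9 CPM, FADS2 at 12.6, PENK at 6.298, C1QA at 4.724 and POSTN at 1.35 there, all above the other GE libraries. FGFR3 was the one that stood low in CG128, at 13.05 CPM against at least 63.18.

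In CS128, PTCH1 was high at 286.3 CPM (next 69.99), AQP3 at 124.0 (next 7.347), FAM84A at 101.7 (next 7.071), MUC6 at 6.769 and ST6GALNAC1 at 1.991 (next 0 for both). ERN1 was low there at 16.72 CPM against at least 32.7. Of these, FAM84A, AQP3, MUC6 and ST6GALNAC1 were called higher in GE, and the epithelial marker sum of this library was the highest of S at 334 CPM. The part of epithelium in this S library was not tested.

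In CS78, RGS5 was at 968.5 CPM (next 230.9), RBP4 at 65.85 (next 8.894), CLU at 61.03 (next 20.11), IGFBP3 at 51.04, PTGS2 at 49.79 (next 5.892), PTGER2 at 29.8, B3GNT3 at 29.44, ITGA3 at 11.96 and HNF4G at 2.855 CPM. CSF1R was low in it, at 55.86 CPM against at least 97.22. In CG78, HPGD was at 31.7 CPM (next 4.919), PTGS2 at 31.02 (next 0.2432), DKK1 at 19.48 and KDR at 7.247. PTGS2 was thus high in both compartments of gilt 78.

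In gilt 40 the vessel and blood genes stood apart. GE held ACTA2 at 72.7 CPM (next 6.073), TAGLN at 26.75 (next 1.575) and HBB at 43.04 (next 7.198), and its smooth muscle and pericyte markers summed to 308.1 CPM (next 125.1). In CS40 HBB was at 1206 CPM (next 319.7) and ALAS2 at 27.1 (next 5.375), and the red blood cell and Schwann cell markers summed to 1286 CPM (next 355.6). IGF2 was at 11.43 CPM and IGFBP3 at 1.702 in CG40, above the others, and ALDH1A2 at 11.91 under them. KCNJ8 was low in CG42, at 0.6417 CPM against at least 1.125.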

How the results depend on the processing

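No named gene reversed its direction in any setting tried. The median of some lists turned, those of gland secretory products in 8 settings, of steroid receptors in 3 and of HOX genes and growth factor receptors in 1 each. With the pairing of libraries by gilt dropped (no replicate block), 5599 genes were called, 2556 higher in GE and 3043 in S, with 4871 in pregnant gilts and 2 in the difference between the groups. Other tests gave 6539 calls (robust likelihood ratio test) and 6134 (DESeq2), other normalizations 5319 to 5337, and counts thinned to the smallest library 5268. Without TMM scaling the median difference rose by 0.145 and 50.6% of calls were higher in GE in place of 45.0%, so that calls in GE outnumbered those in S (2701 against 2636). Requiring at least a 4-fold difference left 3288 calls, 1278 in GE, and genes in both filtered tables gave 3276, 1470 in GE and 1806 in S. At a false discovery rate of 5%, 7502 genes were called, and 2991 higher in GE in pregnant gilts. The difference between the groups gave 86 calls by the robust test. Leaving out 1 gilt gave 3361 to 5240 calls, 1388 to 2458 in GE and 1973 to 2782 in S. The fewest remained without gilt 40 (3361) and without gilt 42 (3485). The fit of pregnant gilts shares its spread with the cyclic libraries. Leaving out 1 gilt of either group gave it 2375 to 4484 calls, 985 to 2024 in GE and 1390 to 2460 in S, with 2375 to 3532 when the gilt left out was one of the 3 pregnant pairs. The difference between the groups gave 0 to 1 calls, the 1 without gilt 78. Gilts 40 and 42 alone, a setting chosen after seeing the data, gave 5441 calls, 4599 shared with all 4 gilts. The spread in that fit was taken mostly from all genes together, so its number of calls is no measure of precision. Among 164 named genes, 6, 19, 26 and 16 calls were lost without the gilt of CG128 and gilts 40, 42 and 78. Levels under the 3-count limit of a library, between 0.535 and 1.16 CPM, could not be ranked, and 4 gilts limit the precision of every difference.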

Other observations

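Gene families grouped by symbol, with groups drawn up after the main results were known, gave further values. Over all genes tested, 17.9% were called higher in GE and 21.8% in S. Of 15 swine leukocyte antigen genes tested, 12 were called higher in S and none in GE, with a median difference of -2.96. Of 29 interferon-stimulated genes, 18 were called higher in S and 1 in GE (median -2.0). The leukocyte markers, at 390.3 to 1717 CPM in S and 67.9 to 105 CPM in GE, moved with both families, and their part was not tested. Few genes of housekeeping families were called, with 1 of 76 ribosomal protein genes called in each direction (RPS4X in GE, RPS15 in S) and 9 of 77 mitochondrial ribosomal protein genes called higher in GE. Of 22 vacuolar ATPase genes, 7 were called higher in GE and 3 in S (ATP6V0A1, ATP6V0D1 and ATP6V1E2), and of 54 Rab GTPase genes 14 and 10. The shares called, 45.5% and 44.4%, were near the 39.7% of all genes. Guidance molecules leaned to S, with 13 of 28 semaphorins, plexins and neuropilins called higher there and 3 in GE (PLXNB1, PLXNB2 and SEMA4D), and 8 of 12 protocadherins against PCDH10 and PCDH15. Ephrins and their receptors were even, with 5 of 14 in each direction (EFNA1, EFNA5, EPHA1, EPHA7 and EPHB3 in GE, and EFNB1, EPHA2, EPHA4, EPHB2 and EPHB6 in S).

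Set beside all 4 captured compartments of the cyclic gilts, scaled together over 16 libraries, several GE genes were low in LE as well. FOXA2 averaged 79.5 CPM in GE, 1.06 in LE, 0.872 in BV and 1.405 in S. HOXA2 averaged 39.3 CPM in GE and 5.12 in LE, and ADAMTS18 583 and 11.7. AQP3 ranged from 136.3 to 1554 CPM in GE and averaged 7.43 in LE, and SYT13 ranged from 164.1 to 5225 CPM in GE and averaged 144 in LE. SOX17 was at 252 CPM in GE and 286 in LE. Genes that were low in both GE and S could be high in LE. PTGS2 averaged 545 CPM in LE (71.3 to 814.6) against 7.58 in GE and 14.5 in S. FGF7 ranged from 4.56 to 1192 CPM in LE, against 0 to 57.5 in GE and 12.6 to 87.1 in S, and OXTR from 2.41 to 386.7 CPM, against 0.873 to 5.19 and 6.06 to 21.4, so that at least 1 LE library was as low as S for both. These genes were picked after their values had been seen, and differences from LE and BV were not tested.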
